A study of Mus musculus with 20 samples.

Results

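The 10 genes described here, *Rbpms*, *Pou4f1*, *Pou4f2*, *Pou4f3*, *Nefl*, *Nefm*, *Nefh*, *Sncg*, *Thy1* and *Opn4*, are markers of retinal ganglion cells, and they were taken by symbol from the 19716 genes listed in the study's tables of normalised fragment counts per transcript length and library size (FPKM). All 10 were listed in all 20 libraries, and they were chosen by symbol with earlier results of these data known. Bulk RNA-Seq was performed on whole mouse retinas, with 5 libraries in each of 4 groups. The first experiment used the oxygen-induced retinopathy (OIR) model, in which pups and their mothers were kept in 75% oxygen from P7 and then in room air from P12. The P17 retinas came from WT (*Atf6*+/+) OIR mice and from Atf6 knockout (*Atf6*-/-) OIR mice, in which the *Atf6* allele of the whole body, and not of the ganglion cells alone, is described as carrying a premature stop in exon IV. All mice of this experiment therefore had the OIR exposure, and no room-air retinas of this age were analysed here. The second experiment used WT mice at P30 without OIR, both eyes of which received an intravitreal injection of 1 µL of either the ATF6 inhibitor Ceapin-A7 at 10 µM or the saline control that the labels call PBS, with retinas collected 24 h later. The labels and the study's methods give different solvents and solvent amounts for the injections, so the vehicles may not be matched. The mice had a C57BL/6J background, and both sexes were used. No source says whether the retinas of a group came from separate animals, and the spread between libraries may therefore be partly technical.

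Retinal ganglion cells are the output neurons of the retina, and their axons leave the eye as the optic nerve. They are rare among retinal cells, and their RNA is a small part of a whole-retina library. The POU-domain transcription factors encoded by *Pou4f1*, *Pou4f2* and *Pou4f3* specify and maintain them, and *Pou4f2* acts early, downstream of *Atoh7*. The light, medium and heavy neurofilament subunits (*Nefl*, *Nefm* and *Nefh*) assemble into the filaments that set axon calibre, and neurofilament RNA falls in ganglion cells after axon injury. *Rbpms* encodes an RNA-binding protein found in nearly all ganglion cells and also in vascular smooth muscle. *Sncg* encodes gamma-synuclein, *Thy1* a surface glycoprotein that other retinal cells can also make, and *Opn4* melanopsin, the photopigment of the few ganglion cells that sense light directly. In bulk retina, fewer cells of a type and less RNA per cell cannot be told apart.

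Promoter sequences were printed for the members that RefSeq entries matched. The reason is that ATF6, the factor removed or inhibited here, is known to act through an ER stress element that ends in CCACG. Entries for 4 of the 10 members were matched, *Pou4f1*, *Pou4f2*, *Sncg* and *Opn4*. Each sequence below is the 250 bases before the RefSeq start site in GRCm38.p6, 5′ to 3′ on the gene's minus strand, with every CCACG or its reverse complement CGTGG in capitals. The windows are chr14:104468000-104468249 for *Pou4f1*, chr8:78436648-78436897 for *Pou4f2*, chr14:34374670-34374919 for *Sncg* and chr14:34600143-34600392 for *Opn4*.
Pou4f1: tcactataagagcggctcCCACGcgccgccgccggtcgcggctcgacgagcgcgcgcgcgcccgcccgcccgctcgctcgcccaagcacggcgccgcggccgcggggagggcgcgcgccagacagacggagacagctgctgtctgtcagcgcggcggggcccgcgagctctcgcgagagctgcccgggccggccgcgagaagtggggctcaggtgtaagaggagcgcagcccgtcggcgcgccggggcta
Pou4f2: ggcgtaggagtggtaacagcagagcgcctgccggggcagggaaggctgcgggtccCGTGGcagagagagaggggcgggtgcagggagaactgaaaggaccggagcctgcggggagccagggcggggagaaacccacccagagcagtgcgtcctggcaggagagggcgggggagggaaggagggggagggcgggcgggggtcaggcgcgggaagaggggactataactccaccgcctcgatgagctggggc
Sncg: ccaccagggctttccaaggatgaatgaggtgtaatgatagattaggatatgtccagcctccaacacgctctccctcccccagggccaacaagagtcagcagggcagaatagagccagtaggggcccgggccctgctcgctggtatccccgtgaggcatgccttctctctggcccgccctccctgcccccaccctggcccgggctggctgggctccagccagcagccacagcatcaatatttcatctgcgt
Opn4: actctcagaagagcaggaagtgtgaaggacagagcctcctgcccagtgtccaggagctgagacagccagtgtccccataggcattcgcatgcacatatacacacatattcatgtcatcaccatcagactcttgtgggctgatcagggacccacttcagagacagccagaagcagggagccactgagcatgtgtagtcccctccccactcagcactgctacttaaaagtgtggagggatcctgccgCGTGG

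The CCACG letters, searched on both strands, were found once each in the *Pou4f1*, *Pou4f2* and *Opn4* windows, starting 232, 195 and 5 bases before the start site, and they occur in 28.3% of 32851 RefSeq promoters of the same length. The whole ER stress element, in which CCAAT stands at a fixed distance before CCACG, was searched on either strand and was in none of the 4 windows and in 0.113% of all promoters. The GC box GGGCGG was in 3 of 4 windows (*Pou4f1*, *Pou4f2* and *Sncg*) and in 32.7% of all. The TATA box TATAAA was in none of the 4 and in 12.4% of all. The E-boxes CAGCTG and CACCTG, letters that basic helix-loop-helix factors such as ATOH7 can bind, were both in the *Pou4f1* window only, and they occur in 13.0% and 17.2% of all promoters. The G and C content of the windows was 78.0% for *Pou4f1*, 70.8% for *Pou4f2*, 61.6% for *Sncg* and 54.8% for *Opn4*. These letter matches describe the windows and do not show binding.

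The tables hold FPKM and no counts, so the depth of each library is unknown beyond the nominal read number that the study's methods give. The size of the smallest FPKM steps gave a relative depth of 0.716 for Ceapin-A7 replicate 3, 0.944 for *Atf6*-/- replicate 4 and between 1.0 and 1.01 for the other 18 libraries. *Atf6* itself was listed at 14.6 to 16.1 FPKM in the *Atf6*+/+ libraries and at 13.6 to 16.8 FPKM in the *Atf6*-/- libraries, so its level does not check the labels. Gm29733, a predicted gene inside *Atf6*, was listed at 3.12 to 6.89 FPKM in the *Atf6*-/- libraries and at 0 to 0.21 FPKM in the *Atf6*+/+ libraries. It was named after its values were seen, so it is not an independent check of the labels. Over all genes, the deviation of a library from its experiment's mean was positively correlated with transcript GC content in *Atf6*+/+ replicates 1, 2, 3 and 5 (Spearman correlation 0.391 to 0.454) and negatively in *Atf6*-/- replicates 1 to 4 (−0.187 to −0.636). *Atf6*+/+ replicate 4 (−0.359) and *Atf6*-/- replicate 5 (0.479) had the sign of the other genotype, although their Gm29733 levels matched their labels. Results of the OIR experiment are therefore given with and without these 2 libraries.

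The levels of the members differed widely within a library. In *Atf6*+/+ OIR retinas, *Sncg* was highest at 216 ± 21.2 FPKM (SD, n = 5), above 98.6% of genes, followed by *Thy1* at 195 ± 6.62 and *Nefl* at 160.3 ± 7.41 FPKM (SD, n = 5 each). *Nefm* and *Nefh* followed at 71.6 ± 10.6 and 53.0 ± 4.08 FPKM, and *Rbpms* at 23.5 ± 2.51 FPKM (SD, n = 5 each). The factors and the photopigment were low, with *Pou4f1* at 8.07 ± 0.945, *Opn4* at 3.94 ± 0.569, *Pou4f2* at 3.15 ± 0.32 and *Pou4f3* at 2.71 ± 0.169 FPKM (SD, n = 5 each), the last above 41.1% of genes. FPKM is per transcript length, so these levels can be set beside each other. *Nefm* and *Nefh* overlapped between libraries, as did *Opn4* with *Pou4f2* and *Pou4f2* with *Pou4f3*, and every other pair of neighbours in this order was separate. In the *Atf6*-/- OIR retinas the order was the same, but *Sncg* overlapped *Thy1*, and *Thy1* overlapped *Nefl*.

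**Figure D1:**
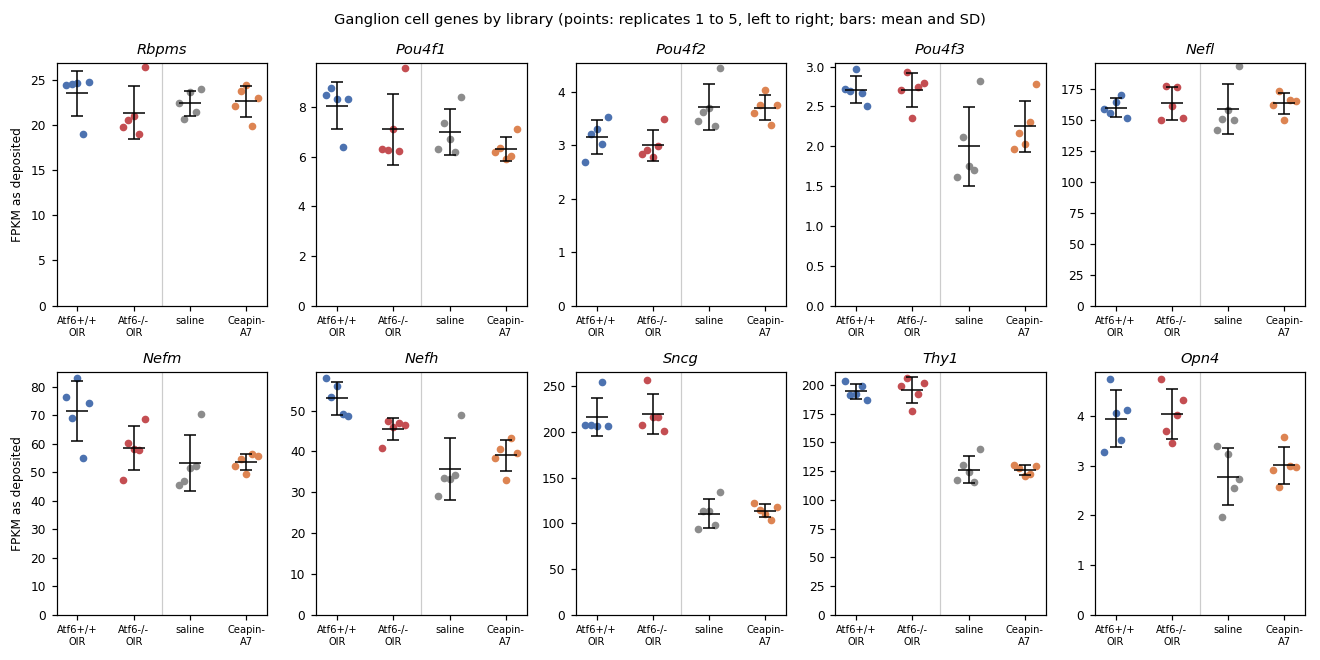
Deposited FPKM of the 10 ganglion cell genes (y axes, from 0) in the 4 groups, with 5 libraries per group as points in replicate order and the mean and SD as bars. *Sncg* and *Thy1* lie higher in all 10 OIR libraries than in all 10 libraries of the P30 experiment, *Atf6*+/+ replicate 4 and *Atf6*-/- replicate 5 lie apart from their groups for *Rbpms* and *Pou4f1*, and saline replicate 5 lies highest of its group for 9 genes.

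In the P30 retinas the order at the top differed. *Nefl* was highest, at 158.9 ± 20.2 FPKM in the saline group and 164 ± 8.66 FPKM in the Ceapin-A7 group, and *Thy1* (126 ± 11.6 and 126 ± 4.41 FPKM) and *Sncg* (111 ± 15.7 and 114 ± 7.09 FPKM) came below it (SD, n = 5 each). *Nefl* overlapped *Thy1* in the saline group but not in the Ceapin-A7 group, and *Thy1* overlapped *Sncg* in both. *Pou4f2* lay above *Opn4* in both P30 groups, but the values of the genes overlapped. *Sncg* spanned 201 to 257 FPKM over the 10 P17 OIR libraries and 94.1 to 134 FPKM over the 10 P30 libraries, and *Thy1* spanned 177 to 206 and 115 to 144 FPKM. For these 2 members the ranges of the experiments did not overlap, and for the other 8 they did. The mean of *Sncg* in *Atf6*+/+ OIR was 1.96 times its mean in the saline group, and that of *Thy1* was 1.54 times. *Nefh* (1.48), *Opn4* (1.42), *Pou4f3* (1.35), *Nefm* (1.34) and *Pou4f1* (1.15) followed, then *Rbpms* (1.05), *Nefl* (1.01) and *Pou4f2* (0.847). The experiments differ in age, oxygen exposure, injection and sequencing table, which cannot be told apart here, and no test was made between them. Summed over the 10 members, the level was 737 ± 20.9 FPKM in *Atf6*+/+ OIR, 721 ± 39.9 in *Atf6*-/- OIR, 523 ± 65.4 in the saline group and 534 ± 19.4 in the Ceapin-A7 group (SD, n = 5 each).

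The OIR comparison asked whether loss of ATF6 changed ganglion cell RNA at the peak of neovascularization. None of the 10 members passed the adjusted threshold, and 5 had a positive and 5 a negative log2 fold change in the *Atf6*-/- libraries, of which those of *Pou4f3*, *Thy1* and *Sncg* turned negative under at least 1 other scaling. Values were lowest relative to control for the medium and heavy neurofilaments, with *Nefm* at 0.83 times and *Nefh* at 0.872 times the *Atf6*+/+ level, and *Nefl* was at 1.03 times. Each comparison used limma on log2 values of FPKM rescaled by library factors, plus 0.1, with Benjamini-Hochberg adjustment over all 15704 genes tested and a call at an adjusted p under 0.05. This scale understates fold changes of low genes. Of all genes, 5 were called, which is 0.0318%. At an unadjusted p of 0.05 or less, 1 member (*Nefh*, lower) was counted, against 12.7% of all genes in either direction and 5.81% with lower values. Over the members, the median log2 fold change was −0.02, against 0.003 over all genes tested, and the adjusted p-values from limma lay between 0.362 and 0.952.

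*Nefh* (NCBI gene 380684) measured 57.94, 53.23, 56.01, 49.18 and 48.72 FPKM in the *Atf6*+/+ libraries, in replicate order, and 40.84, 47.41, 46.07, 47.07 and 46.57 FPKM in the *Atf6*-/- libraries. The deposited values of the groups did not overlap, which held for 1.12% of all genes in this direction, but after rescaling 1 of the 5 *Atf6*-/- libraries lay within the *Atf6*+/+ range. The log2 fold change was −0.20 (standard error 0.07, 95% interval −0.35 to −0.05), with an unadjusted p of 0.0152 and an adjusted p of 0.362 from limma. The permutation test, exact and two-sided, had p = 0.0159, where 0.00794 is the smallest p that 5 against 5 libraries allow. Such a test was made for each member in each experiment, 20 in all, and its p-values are not adjusted.

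*Nefm* (NCBI gene 18040) measured 76.3, 69.21, 83.14, 54.9 and 74.44 FPKM in the *Atf6*+/+ libraries, in replicate order, and 47.29, 60.42, 58.2, 57.95 and 68.77 FPKM in the *Atf6*-/- libraries. The deposited values overlapped through *Atf6*+/+ replicate 4 alone, which was lower than 4 of the 5 *Atf6*-/- libraries. *Atf6*-/- replicate 5 was the highest of its group, and after rescaling it also lay above 1 of the other *Atf6*+/+ libraries. The log2 fold change was −0.27 (standard error 0.13, 95% interval −0.54 to 0.01, adjusted p = 0.396 from limma, exact permutation p = 0.119). *Nefl* (NCBI gene 18039) measured 159.05, 155.99, 164.55, 170.44 and 151.43 FPKM in the *Atf6*+/+ libraries, in replicate order, and 150.09, 177.59, 161.76, 176.83 and 151.63 FPKM in the *Atf6*-/- libraries. The *Atf6*+/+ values lay inside the *Atf6*-/- range, and the log2 fold change of 0.04 had a 95% interval from −0.08 to 0.17 (adjusted p = 0.705 from limma).

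Among the transcription factors, *Pou4f1* (NCBI gene 18996) measured 8.51, 8.76, 8.33, 6.41 and 8.35 FPKM in the *Atf6*+/+ libraries, in replicate order, and 6.32, 6.29, 7.13, 6.24 and 9.59 FPKM in the *Atf6*-/- libraries. In each group 4 libraries were close together and 1 stood apart in the direction of the other group, *Atf6*+/+ replicate 4 and *Atf6*-/- replicate 5. For *Pou4f1* the log2 fold change was −0.17 (standard error 0.14, 95% interval −0.49 to 0.14, adjusted p = 0.561 from limma). *Pou4f2* (NCBI gene 18997) spanned 2.68 to 3.53 FPKM around a median of 3.22 in *Atf6*+/+ and 2.79 to 3.5 FPKM around a median of 2.91 in *Atf6*-/- retinas, a log2 fold change of −0.05 (95% interval −0.28 to 0.18, adjusted p = 0.834 from limma). *Pou4f3* (NCBI gene 18998) spanned 2.5 to 2.97 and 2.36 to 2.93 FPKM, a log2 fold change of 0.01 (95% interval −0.18 to 0.20, adjusted p = 0.952 from limma). As fold changes, these intervals ran from 0.825 to 1.13 times the *Atf6*+/+ level for *Pou4f2* and from 0.884 to 1.15 times for *Pou4f3*. The *Pou4f1* and *Pou4f2* promoters, like that of *Opn4*, held a CCACG, as did 28.3% of all promoters. Whether ATF6 acts on these genes was not tested.

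*Rbpms* (NCBI gene 19663) showed the same arrangement of libraries as *Pou4f1*. It measured 24.46, 24.54, 24.66, 19.0 and 24.77 FPKM in the *Atf6*+/+ libraries, in replicate order, and 19.8, 20.55, 21.03, 19.0 and 26.44 FPKM in the *Atf6*-/- libraries. The log2 fold change was −0.12 (standard error 0.12, 95% interval −0.37 to 0.13, adjusted p = 0.618 from limma). *Rbpms* is also made by vascular smooth muscle. Of 9 mural cell markers, 5 had a lower level in *Atf6*-/- retinas at an unadjusted p of 0.05 or less, against 5.81% of all genes. The 9 summed to 104 to 155 FPKM in *Atf6*+/+ and 84.7 to 108 FPKM in *Atf6*-/- libraries. None of the 9 passed the adjusted threshold, and the part of mural cells in the *Rbpms* values was not tested.

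The members with the highest levels in OIR retinas were *Sncg* and *Thy1*. *Sncg* (NCBI gene 20618) measured 207.47, 207.28, 206.49, 254.37 and 206.41 FPKM in the *Atf6*+/+ libraries, in replicate order, and 207.35, 257.35, 216.41, 216.68 and 201.19 FPKM in the *Atf6*-/- libraries. In each group 1 library exceeded 250 FPKM and the others lay between 201 and 217 FPKM. *Thy1* (NCBI gene 21838) measured 203.31, 191.24, 192.47, 198.92 and 186.54 FPKM in the *Atf6*+/+ libraries, in replicate order, and 199.38, 206.21, 177.38, 192.31 and 201.52 FPKM in the *Atf6*-/- libraries. For both genes the *Atf6*+/+ values lay inside the *Atf6*-/- range, with log2 fold changes of 0.04 for *Sncg* (95% interval −0.12 to 0.20, adjusted p = 0.794 from limma) and 0.02 for *Thy1* (95% interval −0.11 to 0.16, adjusted p = 0.869 from limma). The interval of *Thy1* spans 0.926 to 1.11 times the *Atf6*+/+ level, the narrowest of the 10 after that of *Nefl* (0.948 to 1.12). *Opn4* (NCBI gene 30044) spanned 3.28 to 4.74 FPKM in *Atf6*+/+ and 3.46 to 4.74 FPKM in *Atf6*-/- retinas, a log2 fold change of 0.06 (95% interval −0.21 to 0.32, adjusted p = 0.835 from limma).

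Each of the 2 libraries with the GC trend of the other genotype was left out in turn. Without *Atf6*+/+ replicate 4, the log2 fold change was −0.38 for *Nefm*, −0.24 for *Nefh*, −0.27 for *Pou4f1* and −0.21 for *Rbpms*, and without *Atf6*-/- replicate 5 it was −0.35 for *Nefm*, −0.23 for *Nefh*, −0.30 for *Pou4f1*, −0.22 for *Rbpms* and −0.12 for *Pou4f2*. None of the 10 members was called in either case, the lowest adjusted p from limma being 0.156 and 0.11, against 0.0382% and 0.0573% of all genes called. With both libraries left out, a choice made after seeing the data, 4 of 10 members were called by limma, against 24.9% of all genes. These were *Rbpms* at −0.31 (adjusted p = 0.00221), *Pou4f1* at −0.40 (adjusted p = 0.00304), *Nefm* at −0.45 (adjusted p = 0.00311) and *Nefh* at −0.26 (adjusted p = 0.0147), all from limma. The libraries were picked because their pattern over all genes was opposite to their group's, so leaving them out widens any difference that follows that pattern, and the count is not independent support. When limma weighted the libraries instead of leaving any out, the same 4 members were called, with adjusted p-values from 0.0264 to 0.0451. Of all genes, 17.6% were called in either direction and 9.88% with lower values. The weights were estimated from how far each library's genes lay from its group, so these calls are not independent support either. The transcripts of *Nefm* and *Nefh* had the highest GC content of the 10, 57.8% and 58.4%, against 48.9% to 56.6% for the other members, and the log2 fold changes of all genes were correlated with GC content at a Spearman correlation of −0.479. After each library's trend with GC content was removed, the log2 fold changes were −0.15 for *Nefm* and −0.07 for *Nefh*, those of *Pou4f1* and *Rbpms* were −0.17 and −0.12 as before, and *Sncg*, *Thy1*, *Opn4* and *Pou4f3* moved to 0.14, 0.11, 0.15 and 0.07. No member was called by limma (lowest adjusted p 0.512, for *Thy1*), against 0.0394% of all genes.

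**Figure D2:**
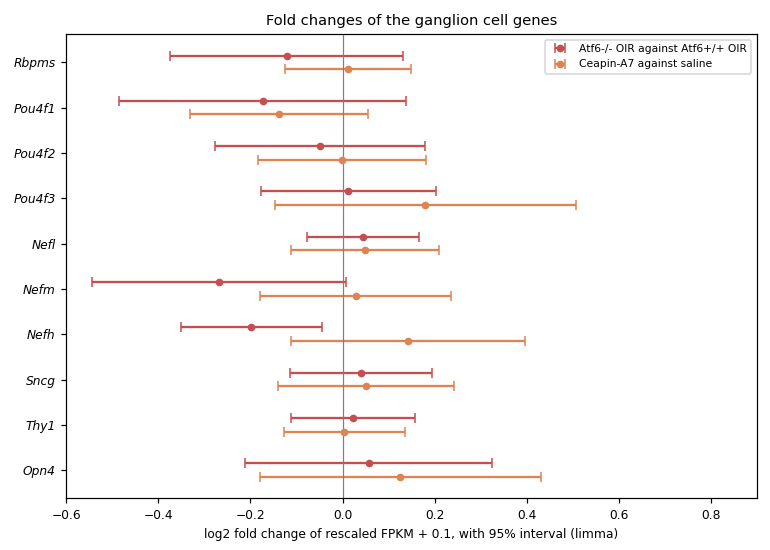
Log2 fold changes of the 10 ganglion cell genes with 95% intervals from limma (x axis), for *Atf6*-/- OIR against *Atf6*+/+ OIR and for Ceapin-A7 against saline, 5 libraries per group. Of the 20 intervals, that of *Nefh* in OIR (−0.35 to −0.05) is the only interval that does not include 0, and no gene passed the adjusted threshold.

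The Ceapin-A7 comparison asked whether acute inhibition of ATF6, without OIR, changed the same RNAs within 24 h. None of the members passed the test. Of the 10, 0 were called by limma among 15408 genes tested, as were 0.0% of all genes, and 0 members had an unadjusted p of 0.05 or less, against 10.4% of all genes. With library weights, limma again called 0 members, and 1 member (*Nefh*, higher) had an unadjusted p of 0.05 or less, against 4.75% of all genes with higher values. The log2 fold change was positive for 8 members and negative for 2, with *Rbpms*, *Nefm*, *Thy1* and *Pou4f2* changing sign under at least 1 other scaling, the median log2 fold change was 0.04 (0.0009 over all genes) and the values ran from −0.14 for *Pou4f1* to 0.18 for *Pou4f3*. Adjusted p-values from limma lay between 0.561 and 0.998.

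*Nefh* was listed at 29.19, 33.44, 33.19, 34.21 and 48.87 FPKM in saline replicates 1 to 5 and at 38.37, 40.66, 32.93, 43.41 and 39.7 FPKM in Ceapin-A7 replicates 1 to 5. The Ceapin-A7 values lay inside the saline range, which saline replicate 5 set at the top. The log2 fold change was 0.14 (standard error 0.12, 95% interval −0.11 to 0.40, adjusted p = 0.651 from limma, exact permutation p = 0.333). *Pou4f3* was listed at 1.61, 2.12, 1.75, 1.7 and 2.82 FPKM in saline and at 1.96, 2.17, 2.03, 2.3 and 2.78 FPKM in Ceapin-A7 replicates 1 to 5, a log2 fold change of 0.18 (standard error 0.15, 95% interval −0.15 to 0.51, adjusted p = 0.654 from limma). *Pou4f1* was listed at 6.3, 7.38, 6.71, 6.18 and 8.43 FPKM in saline and at 6.21, 6.34, 5.9, 6.04 and 7.11 FPKM in Ceapin-A7 replicates 1 to 5, a log2 fold change of −0.14 (standard error 0.09, 95% interval −0.33 to 0.05, adjusted p = 0.561 from limma). For both factors, the highest library of each group was replicate 5.

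The other members had log2 fold changes nearer 0 than these. *Nefl* spanned 142 to 194 FPKM in saline and 150.1 to 174 FPKM in Ceapin-A7 retinas (log2 fold change 0.05, 95% interval −0.11 to 0.21), and *Nefm* spanned 45.5 to 70.4 and 49.5 to 56.3 FPKM (log2 fold change 0.03, 95% interval −0.18 to 0.24). *Sncg* spanned 94.1 to 134 and 104 to 122 FPKM (log2 fold change 0.05, 95% interval −0.14 to 0.24), and *Thy1* spanned 115 to 144 and 120.4 to 130.3 FPKM (log2 fold change 0.004, 95% interval −0.13 to 0.14). In these 4 genes every Ceapin-A7 library lay inside the saline range. *Rbpms* spanned 20.65 to 23.96 FPKM in saline and 19.9 to 24.4 FPKM in Ceapin-A7 retinas, and *Pou4f2* spanned 3.37 to 4.45 and 3.38 to 4.03 FPKM. Their log2 fold changes were 0.01 (95% interval −0.12 to 0.15) and −0.0005 (95% interval −0.18 to 0.18). *Opn4*, with 1.97 to 3.39 and 2.56 to 3.57 FPKM, had the second widest interval, from −0.18 to 0.43 around a log2 fold change of 0.13.

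Saline replicate 5 stood above its group for most members. It was the highest of the 5 saline libraries for 9 of 10, *Opn4* being the exception. Without it, 4 members had an unadjusted p of 0.05 or less and a higher mean after Ceapin-A7, against 7.58% of all genes in either direction. These were *Nefh* (log2 fold change 0.25), *Pou4f3* (0.30), *Nefm* (0.13) and *Nefl* (0.12), all higher after Ceapin-A7. None of them passed the adjusted threshold (lowest adjusted p 0.648 from limma). The library was singled out because these members were high in it, so leaving it out raises their fold changes and is not independent support.

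The fold changes of the experiments were compared within a single fit of the 20 libraries, which share no control samples. The OIR value minus the Ceapin-A7 value, both log2 fold changes, was −0.34 for *Nefh* (standard error 0.14, 95% interval −0.63 to −0.04, adjusted p = 0.504 from limma) and −0.30 for *Nefm* (standard error 0.17, 95% interval −0.64 to 0.05, adjusted p = 0.586 from limma). No member was called among 15628 genes, of which 0.032% were called, and 1 (*Nefh*) had an unadjusted p of 0.05 or less, as did 9.19% of all genes. With library weights, limma called *Nefm* (−0.47, adjusted p = 0.0348) and *Nefh* (−0.43, adjusted p = 0.0431), against 4.76% of all genes. The weights were estimated from these same libraries, so the calls are not independent support. The other 8 differences lay between −0.17 for *Pou4f3* and 0.02 for *Thy1*.

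Ratios within a library do not depend on the scaling between libraries, and 4 ratios were compared in each experiment by exact two-sided permutation tests, 8 in all. The subunit ratio *Nefh*/*Nefl* was 0.364, 0.341, 0.34, 0.289 and 0.322 in *Atf6*+/+ OIR replicates 1 to 5 and 0.272, 0.267, 0.285, 0.266 and 0.307 in *Atf6*-/- OIR replicates 1 to 5. The means were 0.331 ± 0.0282 and 0.279 ± 0.0172 (SD, n = 5 each), with *Atf6*+/+ replicate 4 and *Atf6*-/- replicate 5 as the libraries that overlapped. The difference of −0.24 on the log2 scale had an exact permutation p of 0.0159, which was 0.127 after adjustment over the 8 tests. *Nefm*/*Nefl* was 0.448 ± 0.0743 in *Atf6*+/+ and 0.359 ± 0.0552 in *Atf6*-/- OIR retinas (SD, n = 5 each, exact permutation p = 0.0952, adjusted p = 0.254). After removal of the GC trend, the log2 differences of these ratios in OIR were −0.10 and −0.18, against −0.24 and −0.31 without it.

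**Figure D3:**
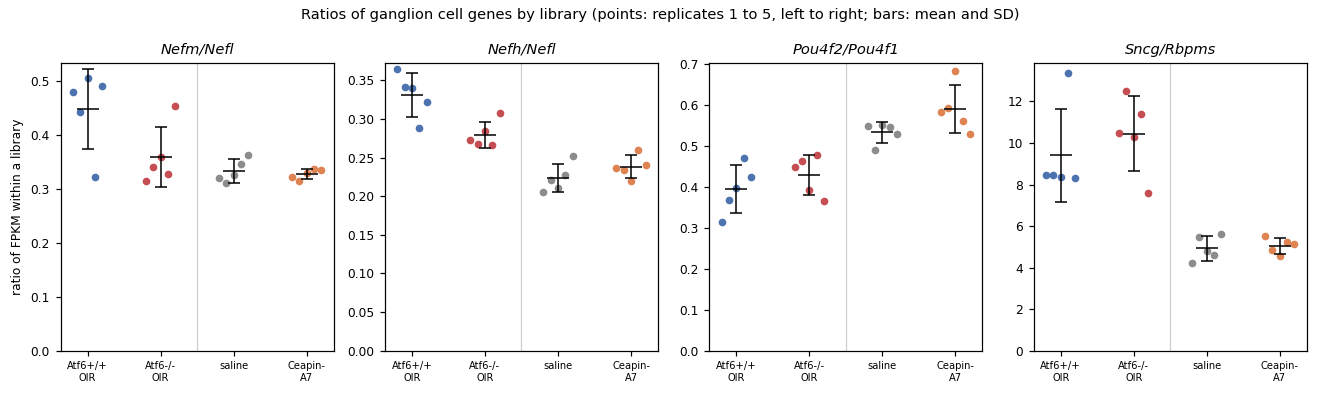
Ratios of FPKM within a library (y axes, from 0) for the neurofilament pairs *Nefm*/*Nefl* and *Nefh*/*Nefl*, the factor pair *Pou4f2*/*Pou4f1* and the marker pair *Sncg*/*Rbpms* in the 4 groups, with 5 libraries per group as points in replicate order and the mean and SD as bars. The *Nefh*/*Nefl* ratio is 0.289 to 0.364 in *Atf6*+/+ OIR and 0.266 to 0.307 in *Atf6*-/- OIR retinas, and no ratio passed the test after adjustment.

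After Ceapin-A7 the neurofilament ratios did not pass the test, with *Nefh*/*Nefl* at 0.224 ± 0.0185 in saline and 0.238 ± 0.0147 in Ceapin-A7 retinas (SD, n = 5 each, exact permutation p = 0.206, adjusted p = 0.413). *Nefm*/*Nefl* was 0.333 ± 0.0214 and 0.328 ± 0.00929 (SD, n = 5 each, exact permutation p = 0.675, adjusted p = 0.675). The factor ratio *Pou4f2*/*Pou4f1* was 0.548, 0.491, 0.551, 0.545 and 0.528 in saline replicates 1 to 5 and 0.581, 0.592, 0.683, 0.56 and 0.527 in Ceapin-A7 replicates 1 to 5. Of the Ceapin-A7 libraries, 4 lay above all 5 saline libraries, and replicate 5 lay among them (exact permutation p = 0.0556, adjusted p = 0.222). In OIR the same ratio was 0.395 ± 0.0586 and 0.429 ± 0.0484 (SD, n = 5 each, exact permutation p = 0.333, adjusted p = 0.508). *Sncg*/*Rbpms* was 9.41 ± 2.23 and 10.5 ± 1.82 in OIR and 4.94 ± 0.594 and 5.06 ± 0.381 at P30 (SD, n = 5 each, adjusted p = 0.508 and 0.675 from exact permutation tests). With 8 tests, a single ratio whose groups did not overlap could reach an adjusted p of 0.0635 at the lowest, so these tests could not pass 0.05 unless several ratios were separated.

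The members did not vary as 1 block between libraries. With group means removed, the log2 values of the 10 genes over the 20 libraries were most alike for *Rbpms* and *Pou4f1* (Pearson r = 0.81), *Nefl* and *Nefh* (r = 0.80) and *Nefm* and *Nefh* (r = 0.79). *Pou4f1* and *Nefm* (r = 0.75), *Pou4f3* and *Thy1* (r = 0.74), *Pou4f3* and *Nefh* (r = 0.73) and *Nefl* and *Sncg* (r = 0.73) came next. *Pou4f2* was closest to *Rbpms* and *Pou4f1* (r = 0.66 and 0.65). *Rbpms* was not like *Nefl* or *Sncg* (r = −0.12 and −0.15), although all 3 mark ganglion cells. *Opn4*, which marks a small class of them, stood apart, with r from −0.37 with *Nefl* to 0.37 with *Rbpms*. These values describe 20 libraries that share scaling factors and the GC trend, and no test was made of them.

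**Figure D4:**
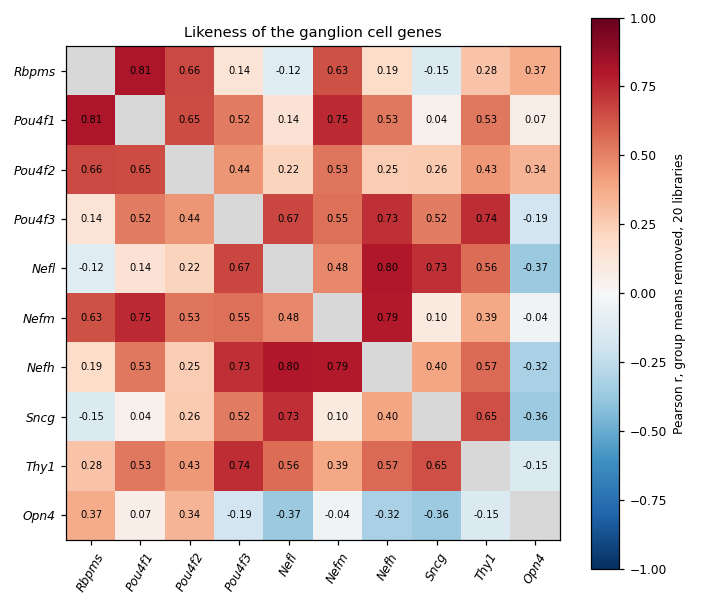
Pearson correlations between the log2 values of the 10 ganglion cell genes over 20 libraries after group means were removed, coloured from −1 to 1. *Rbpms* and *Pou4f1* (0.81), *Nefl* and *Nefh* (0.80) and *Nefm* and *Nefh* (0.79) are the closest pairs, and *Opn4* has no value above 0.37.

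In the OIR experiment, *Atf6*+/+ replicate 4 was below the experiment's mean for 8 of 10 members and *Atf6*-/- replicate 5 was above it for 8 of 10, with median log2 deviations of −0.08 and 0.15. *Atf6*-/- replicate 3 was below for all 10 (median −0.12). In the P30 experiment, saline replicate 5 was above for 9 of 10 (median 0.24), saline replicate 4 was below for 10 (median −0.15), saline replicate 1 was below for 8 (median −0.13) and Ceapin-A7 replicate 5 was above for 10 (median 0.06). The spread of the members within the saline group was larger than within the Ceapin-A7 group, with coefficients of variation of 21.2% against 9.92% for *Nefh*, 18.7% against 5.23% for *Nefm* and 14.2% against 6.23% for *Sncg*. *Rbpms* was the exception, at 6.29% and 7.71%. This comparison rested on saline replicate 5. Without it, a choice made after seeing the data, the saline values were 6.93% for *Nefh*, 6.61% for *Nefm* and 9.48% for *Sncg*, and the saline group had the smaller value for 5 of 10 members, *Nefh* among them.

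**Figure D5:**
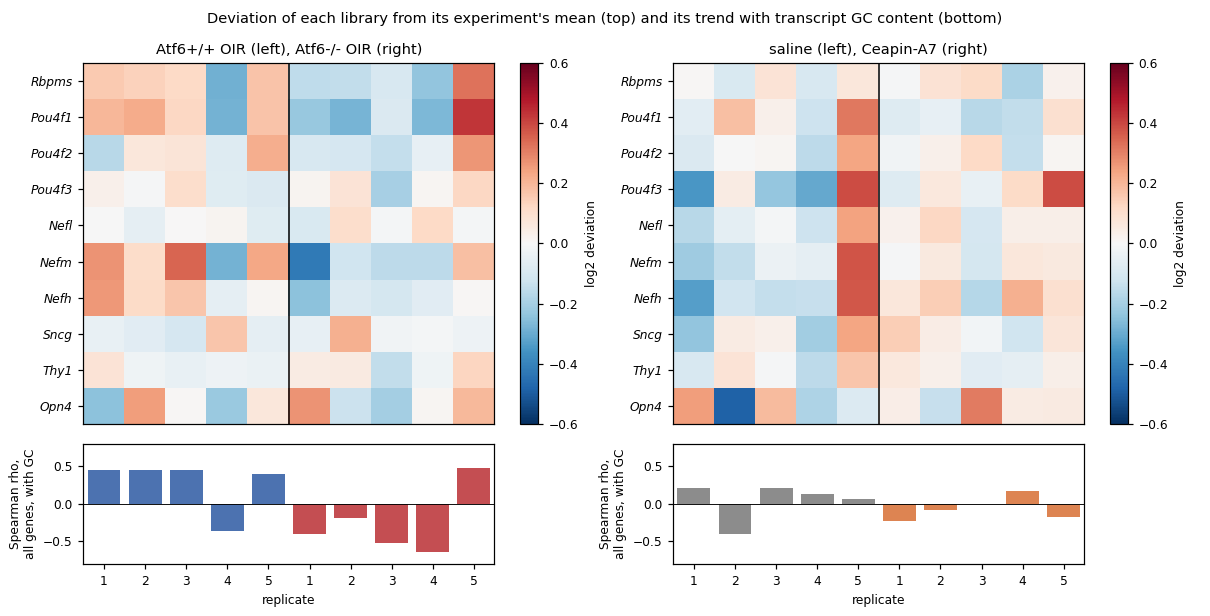
Log2 deviation of each library from the mean of its experiment for the 10 ganglion cell genes (top, colour scale) and the Spearman correlation of the library's deviations over all genes with transcript GC content (bottom, bars from 0), by replicate in the OIR (left) and P30 (right) experiments. *Atf6*+/+ replicate 4 (correlation −0.359) and *Atf6*-/- replicate 5 (correlation 0.479) have the sign of the other genotype, and saline replicate 5 is above the mean for 9 of 10 genes.

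Among 9899 other genes with a mean level of at least 5 FPKM, those whose profile over the 20 libraries was most like the mean profile of the 10 members were *Atp1b1* (r = 0.92, mean 190.2 FPKM), *Cxcl14* (r = 0.90, mean 34.7 FPKM), *Ncs1* (r = 0.89, mean 16.4 FPKM), *Inpp5a* (r = 0.87, mean 22.9 FPKM) and LOC118568705 (r = 0.87, mean 58.4 FPKM). *Atp1b1* encodes a subunit of the sodium pump, *Cxcl14* a chemokine, *Ncs1* a neuronal calcium sensor and *Inpp5a* an inositol phosphatase. With the single members, *Atp1b1* had r from 0.12 to 0.77 and *Ncs1* from 0.13 to 0.87.

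Genes beyond the 10 members were read from 4 further lists of ganglion cell genes. Of 15 further factors tested in OIR, 3 were higher and 0 lower in *Atf6*-/- retinas at an unadjusted p of 0.05 or less, against 6.94% of all genes higher and 5.81% lower, and the median log2 fold change was −0.0002. *Foxp2*, a factor of a set of ganglion cell types, measured 0.53, 0.77, 0.62, 0.71 and 0.7 FPKM in the *Atf6*+/+ libraries, in replicate order, and 0.79, 0.87, 1.07, 1.01 and 0.76 FPKM in the *Atf6*-/- libraries (log2 fold change 0.40, standard error 0.13, adjusted p = 0.36 from limma). After rescaling its groups did not overlap, as held for 1.8% of all genes in either direction. *Isl1*, which ganglion, amacrine and bipolar cells share, was at 49.0 ± 3.39 and 54.9 ± 6.12 FPKM, and *Zic1* at 3.34 ± 0.356 and 4.18 ± 0.863 FPKM (SD, n = 5 each, adjusted p = 0.366 and 0.373 from limma).

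Of 16 further ganglion cell markers, 5 were higher and 3 lower at that threshold in OIR, against 6.94% and 5.81% of all genes. Their median log2 fold change was 0.18. *Jam2*, a junctional adhesion molecule found in direction-selective ganglion cells, measured 46.24, 57.34, 51.93, 55.61 and 54.72 FPKM in the *Atf6*+/+ libraries, in replicate order, and 65.54, 66.74, 66.95, 68.63 and 53.41 FPKM in the *Atf6*-/- libraries. In 4 of the 5 *Atf6*-/- libraries it was above all *Atf6*+/+ libraries, and replicate 5 lay among them (log2 fold change 0.29, standard error 0.07, adjusted p = 0.358 from limma). *Penk*, which encodes proenkephalin, was at 23.5 ± 2.55 and 30.4 ± 7.08 FPKM, and *Mmp17*, a membrane-bound metalloproteinase, at 7.91 ± 1.65 and 4.98 ± 1.92 FPKM (SD, n = 5 each, adjusted p = 0.36 for both from limma).

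Of 18 axon cytoskeleton and growth genes, 2 were higher and 2 lower in OIR, against 6.94% and 5.81% of all genes. Their median log2 fold change was −0.05. *Prph*, which encodes the intermediate filament peripherin that can assemble with the neurofilament subunits, measured 15.07, 8.49, 11.41, 14.25 and 9.8 FPKM in the *Atf6*+/+ libraries, in replicate order, and 5.53, 8.76, 8.02, 6.75 and 8.12 FPKM in the *Atf6*-/- libraries (log2 fold change −0.63, standard error 0.16, adjusted p = 0.358 from limma). Its groups overlapped through *Atf6*+/+ replicate 2 alone. *Sncb*, the beta-synuclein gene, was at 379 ± 53.4 and 285 ± 69.0 FPKM, and *Scn1a*, a sodium channel gene, at 5.89 ± 0.498 and 6.94 ± 0.932 FPKM (SD, n = 5 each, adjusted p = 0.366 and 0.364 from limma).

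Of 14 genes known to respond to ganglion cell axon injury, 0 were higher and 4 lower in *Atf6*-/- OIR retinas, against 6.94% and 5.81% of all genes. A negative log2 fold change was found for 12 of the 14 (median −0.27, against 0.003 over all genes tested). The list was not tested as a set. *Ddit3*, the gene of the stress factor CHOP, measured 69.64, 54.82, 61.31, 69.07 and 58.43 FPKM in the *Atf6*+/+ libraries, in replicate order, and 49.87, 54.39, 52.7, 45.84 and 52.14 FPKM in the *Atf6*-/- libraries. The deposited values did not overlap, as held for 1.12% of all genes in this direction, but after rescaling 1 of the 5 *Atf6*-/- libraries lay within the *Atf6*+/+ range. The difference on the log2 scale was −0.28 with a standard error of 0.08 (adjusted p = 0.358 from limma). *Bbc3*, the gene of the apoptosis protein PUMA, was at 6.38 ± 0.466 and 5.12 ± 0.548 FPKM and *Jun* at 29.6 ± 5.19 and 21.7 ± 4.57 FPKM (SD, n = 5 each, adjusted p = 0.358 and 0.362 from limma). None of the genes of the 4 lists passed the adjusted threshold in OIR. *Ddit3* and *Jun* are expressed in many retinal cell types, so these values do not belong to ganglion cells alone.

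After Ceapin-A7, 0 of 15 further factors had an unadjusted p of 0.05 or less, against 5.04% of all genes higher and 5.31% lower. The factors with the smallest p were *Tfap2d* (log2 fold change 0.16), *Zic1* (0.46) and *Atoh7* (0.27), with adjusted p-values from 0.574 to 0.601 from limma. Of 16 markers, 2 were higher and 1 lower. These were *Igf1* (3.80 ± 0.305 and 4.76 ± 0.865 FPKM), *Spp1*, the osteopontin gene (17.8 ± 2.17 and 20.8 ± 2.84 FPKM), and *Mmp17* (7.36 ± 0.943 and 6.44 ± 0.362 FPKM; SD, n = 5 each). Of 18 axon genes, 0 were higher and 3 lower, namely *Nfasc* (log2 fold change −0.22), *Scn8a* (−0.17) and *Cntn2* (−0.21), which encode proteins of the axon initial segment and the nodal region. Rescaled values of *Cntn2* did not overlap between the groups, nor did those of 1.47% of all genes. *Nfasc* spanned 48.36 to 68.48 FPKM in saline and 47.19 to 49.38 FPKM in Ceapin-A7 retinas, and 4 of the 5 treated libraries lay below all saline libraries.

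Of the 14 injury genes, 0 were higher and 3 lower after Ceapin-A7, against 5.04% and 5.31% of all genes. A negative log2 fold change was found for 13 of the 14 (median −0.39, against 0.0009 over all genes tested). *Atf3*, a factor induced by axon injury, was listed at 6.37, 6.4, 4.86, 28.56 and 20.72 FPKM in saline and at 3.33, 3.79, 5.41, 5.47 and 3.18 FPKM in Ceapin-A7 replicates 1 to 5. Saline replicates 4 and 5 lay far above the other 8 libraries, and the difference on the log2 scale was −1.31 with a standard error of 0.44 (adjusted p = 0.472 from limma). *Tubb2b*, a tubulin gene, was at 32.6 ± 14.6 and 18.6 ± 5.3 FPKM, and *Gal*, the galanin gene, at 1.92 ± 0.329 and 1.29 ± 0.664 FPKM (SD, n = 5 each, adjusted p = 0.472 for both from limma). None of the genes of the 4 lists passed the adjusted threshold after Ceapin-A7. All eyes of this experiment were injected, and no uninjected retinas were analysed here.

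Markers of other cells were summed in each library to set the members beside the makeup of the tissue. Markers counted as higher or lower, here and in the next paragraph, had p at most 0.05 in limma before adjustment. By that rule 6.94% of all genes were higher and 5.81% lower in OIR, and 5.04% and 5.31% after Ceapin-A7. Amacrine markers, whose cells lie beside ganglion cells, summed to 663 to 685 FPKM in *Atf6*+/+ OIR, 651 to 697 in *Atf6*-/- OIR, 679 to 835 in saline and 703 to 743 in Ceapin-A7 libraries, with *Calb2* the highest and 2 of 14 higher in OIR and 0 of 14 after Ceapin-A7. Astrocyte markers, whose cells follow the ganglion cell axons, summed to 77.0 to 159 and 54.5 to 119.5 FPKM in OIR, with *Gfap* the highest at a mean of 85.6 and 58.6 FPKM and 0 of 5 past an unadjusted p of 0.05. After Ceapin-A7 *Gfap*, at 32.2 FPKM in saline and 18.9 FPKM in treated retinas, was the 1 of 5 below that p, and it did not pass adjustment. Oligodendrocyte and optic nerve markers, which would show attached nerve, were low, with 6 of 10 above the filter, a sum of 23.0 to 33.5 FPKM over the 20 libraries *Cnp* the highest and 1 higher in each experiment. Endothelial markers (*Kdr* the highest) had 0 higher and 3 lower of 10 in OIR, mural markers (*Rgs5*) 0 and 5 of 9, and microglia and macrophage markers (*C1qc*) 0 and 2 of 10. Rod, cone (*Pde6h*) and horizontal cell (*Septin4*) markers had 3 of 10, 2 of 8 and 3 of 6 higher, and bipolar and Muller glia (*Apoe*) markers 1 of 11 and 1 of 9 higher, with 0 lower in each.

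Pigment epithelium markers (*Rlbp1* the highest) had 5 of 10 higher in OIR, against 6.94% of all genes. Their sums were 195 to 318 FPKM in *Atf6*+/+ and 261 to 493 FPKM in *Atf6*-/- libraries. A large part of these sums was *Rlbp1*, at means of 204 and 211 FPKM, which is also on the Muller glia list. Lens markers (*Cryaa*) had 9 of 11 lower, against 5.81% of all genes, with sums of 9.24 to 529 and 5.83 to 9.4 FPKM. Erythroid markers (*Hba-a1*), of which 0 of 5 passed an unadjusted p of 0.05, summed to 380 to 2505 and 407 to 1361 FPKM. After Ceapin-A7, cone markers had 5 of 8 higher, against 5.04% of all genes. Rod, mural, endothelial and microglia markers had 1 higher each, and bipolar and Muller glia markers 2 higher and 1 lower each. Pigment epithelium markers had 3 higher and 2 lower, and horizontal cell and erythroid markers 0. Of 12 lens markers 0 passed that p, and they summed to 8.6 to 5341 FPKM in saline and 91.5 to 9618 FPKM in Ceapin-A7 libraries. No gene of these lists was listed at 0 in every library, and none passed the adjusted threshold in either experiment. The part of these other cells in the values of the members was not tested.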

How the data were processed

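Bulk RNA-Seq of 20 whole-retina libraries was analysed, 5 in each of 4 groups, taken from the sample labels. The authors aligned stranded paired-end reads to GRCm39 with HISAT2 (2.0.4) and deposited FPKM values per gene from RSEM (1.2.18), to 2 decimals. The authors' own comparisons used DESeq2 (1.4.5) and were not used here. Without counts, no count test and no counting interval was possible. Beyond the nominal read number of the methods, a library's depth is known only relative to other libraries, from the value of 1 fragment in low genes.

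Each library was rescaled by its median ratio to the geometric mean over genes (factors 0.946 to 1.04 in OIR, 0.98 to 1.02 at P30). After a pseudocount of 0.1, log2 values of genes whose mean exceeded 0.1 FPKM entered limma (3.58.1, eBayes with trend) in R (4.3.3), adjusted by Benjamini-Hochberg over all genes tested. Exact permutation tests used all 252 arrangements of 5 against 5 libraries. The fits were tested on simulated data with independent noise for each gene and no GC trend, so that test does not cover the GC trend seen here. GC content was taken from the longest GENCODE transcript (GRCm38, matched by symbol for 97.0% of genes tested in OIR and 97.1% at P30), and promoters from RefSeq.

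The members, the 18 gene lists and the tests were chosen with earlier results of these data known. The genes named are the 10 members, per experiment the 3 genes of lowest p from every further ganglion cell list, the 5 genes most like the members' mean profile, and the gene with the highest mean in each marker list of another cell type, which for the rod and bipolar lists is not reported here. *Atf6* and Gm29733 were named to check the genotypes, Gm29733 after its values were seen.

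The alternatives changed the pseudocount (1 or 0.01), the filter (none, or above 1 FPKM), the scaling (none, TPM, quantile) or the limma fit (no trend, library weights, all 20 libraries in 1 model, a block for the replicate number), left out each library, or removed each library's GC trend (lowess span 0.3). Leaving out both libraries with the opposite GC trend, and the GC correction of the ratios, were added after seeing the data. No pair of libraries of a group was identical: the standard deviation of their log2 differences was at least 0.213.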

Additional observations from a re-analysis of the deposited data

Results flagged for a closer look

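Within groups of 5 libraries, 1 library can lie so far from the other 4 that its gap exceeds Dixon's 95% critical value. This was checked for 104 sets of 5 values (the members and their ratios, and the further ganglion cell genes named for the same experiment) and found in 15, where chance alone gives about 1 in 20 and the sets share libraries. No member was called by limma in the main test of the difference between the experiments, and library weights called *Nefm* and *Nefh*.

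*Atf6*+/+ OIR replicate 4 was set apart by *Rbpms* at 19.0 FPKM and *Pou4f1* at 6.41 FPKM, both low, and by *Sncg* at 254.37 FPKM and *Sncg*/*Rbpms* at 13.39, both high. *Atf6*-/- OIR replicate 5 was set apart by *Rbpms* at 26.44 FPKM, *Pou4f1* at 9.59 FPKM, *Pou4f2* at 3.5 FPKM, *Mmp17* at 8.34 FPKM and *Sncb* at 403.46 FPKM, all high, and by *Jam2* at 53.41 FPKM, which was low. These are the 2 libraries whose GC trend had the sign of the other genotype. *Atf6*-/- OIR replicate 2 was set apart by *Sncg* at 257.35 FPKM and *Penk* at 42.63 FPKM, both high, and *Atf6*-/- OIR replicate 1 by *Nefh* at 40.84 FPKM, which was low. Saline replicate 5 was set apart by *Nefm* at 70.39 FPKM and *Nefh* at 48.87 FPKM, both high. No explanation of these values was tested.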

How the results depend on the processing

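None of the 10 members was called in either experiment under another pseudocount, filter or scaling, limma without trend, the fit of all 20 libraries, the GC correction or the loss of any 1 library. In OIR, limma with library weights called 4 members and 2769 genes, and leaving out both *Atf6*+/+ replicate 4 and *Atf6*-/- replicate 5 gave 4 members and 3909 genes, against 0 and 5. No filter gave 9 genes and the fit of all 20 libraries 11 in OIR and 1 after Ceapin-A7, where 0 were called otherwise. Library weights called 2 members in the difference between experiments. Of the 12 further ganglion cell genes named in OIR, weights called 10 and the loss of both libraries 9. Of all genes, weights called 17.6% and the loss of both libraries 24.9%. These 12 were named for the smallest p of their lists in this comparison, so the counts are not independent support. No setting called a named gene after Ceapin-A7. The loss of both libraries and the GC correction of the ratios were chosen after seeing the data, and the cause of these shifts was not tested.

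Members near 0 changed sign. In OIR, *Pou4f3* was −0.00445 as deposited, −0.0107 by TPM, −0.0478 with weights and −0.0335 without both libraries. *Thy1* was −0.00137 by TPM, −0.0213 by quantile scaling, −0.0156 with weights and −0.0114 without both. *Sncg* was −0.00498 by quantile scaling, and *Opn4* −0.0624 with weights and −0.0344 without both. After Ceapin-A7, *Rbpms*, *Nefm* and *Thy1* were −0.0267, −0.00991 and −0.0351 by TPM, *Thy1* −0.0192 and *Pou4f2* 0.019 by quantile scaling, *Pou4f2* 0.0212 with weights, and *Nefm*/*Nefl* 0.00952 after the GC correction.

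With each library left out, 5 to 9 genes were called in OIR and 0 after Ceapin-A7. The ranges that crossed 0 were −0.0178 to 0.0644 for *Pou4f3*, −0.00941 to 0.0856 for *Sncg*, −0.00823 to 0.0627 for *Thy1* and −0.00335 to 0.127 for *Opn4* in OIR. After Ceapin-A7 they were −0.0157 to 0.0614 for *Rbpms*, −0.0391 to 0.0578 for *Pou4f2*, −0.0208 to 0.127 for *Nefm*, −0.00186 to 0.117 for *Sncg*, −0.0343 to 0.0451 for *Thy1*, −0.0450 to 0.0113 for *Nefm*/*Nefl* and −0.0168 to 0.0867 for *Sncg*/*Rbpms*.

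Groups share replicate numbers, and deviations of same-numbered libraries correlated from −0.392 to 0.314 in OIR and from −0.375 to 0.455 at P30. The same number gave the highest correlation for 0 of 5 in OIR and 1 of 5 at P30. With so few libraries, these values cannot exclude something common to a number. The replicate block called 0 members, and 5 genes in OIR and 0 after Ceapin-A7. The read depth of each library is unknown and low genes are the least precise.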
